A study of Danio rerio with 15 samples.

Results

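Ventricles of adult zebrafish 9 days after the end of phenylhydrazine treatment were compared with ventricles of untreated control fish, across all genes on the array. The comparison rests on 6 of the 15 arrays of the series, the 3 titled as 9 days after treatment and the 3 titled as control. Fish of the 9 day group had taken baths of 30 min every 3 days over 5 weeks in water with phenylhydrazine. The dose was 1.25 µg/mL during week 1 and 2.5 µg/mL from then on, and 9 days without the compound followed. Control fish went through the same baths without phenylhydrazine, and the labels give them no sampling day, so recovery and sampling day cannot be told apart. The other 9 arrays hold fish at the end of treatment and 2 and 5 days later. Each array carried the RNA of 3 pooled ventricles, labelled as a biological replicate, with 250 ng of RNA. No strain, sex or age beyond adult is stated in the labels used here.

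Phenylhydrazine breaks down red blood cells, and the resulting anaemia makes the heart pump against a shortage of oxygen. The zebrafish ventricle can grow back lost or damaged muscle because its cardiomyocytes re-enter the cell cycle, while macrophages, endocardium and epicardium respond around them. Once the compound is withdrawn, new red cells restore oxygen delivery, and the study followed the heart through that period. The 9 day group is the last time point, and its comparison with control asks what still differs when the recovery period ends.

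Every value below is a log2 expression value, or a difference of such values ± its standard error from limma with 3 arrays per group, so a difference of 1 is a 2-fold change. The words rose and fell are used for genes whose limma p-value at 9 days, adjusted over all 19260 genes tested, was under 0.05. Values of arrays are given in the order of replicates 1, 2 and 3. Median array signals were 4.02 to 4.1 on the 15 arrays, and precision is limited by the number of arrays. Pairs of arrays were correlated across the 19260 genes, which are no independent replicates. The range of r was 0.982 to 0.988 between the 9 day and control groups and 0.989 to 0.993 within the 5 groups of the series. On the second principal component, with 11.6% of the variance, the 9 day arrays lay at 14.3, 18.8 and 28 and the control arrays at -4.6, -9.3 and -2.9, where the sign is arbitrary. Array 3 of the 9 day group was the farthest from control on this component. The groups also lay apart on component 1 (32.2% of the variance), at -13.1, -14.9 and -12.2 against -29.4, -24.7 and -26.9 in controls. On component 3 (9.84%) they lay at -4.7, -6.8 and -11.3 against 15.9, 16.3 and 15.7.

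Heart muscle genes expressed in both chambers had high signals in both groups. The myosin light chain gene myl7 had 13.36, 13.39 and 13.44 at 9 days, against 13.45, 13.37 and 13.37 in controls, and the troponin T gene tnnt2a had 12.70, 12.70 and 12.67 at 9 days, against 12.73, 12.73 and 12.74 in controls. Neither passed the test. The ventricular myosin gene myh7l had 12.66, 12.74 and 12.76 at 9 days, against 12.79, 12.82 and 12.68 in controls. Atrial marker genes ranged from low to high signals in both groups, and none of those named next passed the test. The light chain gene myl4 averaged 4.05 at 9 days and 4.43 in controls, and nr2f2 averaged 5.72 and 5.83. The atrial myosin gene myh6 averaged 10.64 at 9 days and 11.35 in controls, and tnni1b averaged 11.47 and 11.54. The part of atrial tissue in these samples was not tested. Marker genes of skeletal muscle, neurons, liver, gut and gonad were mostly near the low end of the scale, apart from ckma, a muscle creatine kinase gene that averaged 13.16 at 9 days and 13.02 in controls. No detection values were used here, so low values cannot be called absent.

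At 9 days 1452 genes (7.54%) differed from control, 816 higher (4.24%) and 636 lower (3.3%). The largest rises came from genes of several kinds: stress and nutrient regulators, macrophage genes, a gene of the red cell list, light-induced DNA repair genes and clock genes. The largest falls included mitochondrial import genes, Krüppel-like transcription factors, a muscle chaperone and a pacemaker channel. Most changes were small, since 568 (2.95%) reached 1.5-fold, and among those at 2-fold or more 81 were higher (0.421%) and 23 lower (0.119%). The 9 day and control arrays did not overlap in 4912 genes (25.5%), which took in 1435 of the called genes (7.45% of all tested). A smaller core of 512 genes (2.66%) stayed called when any 1 of the 6 arrays was left out. The total fell to 713 without 9 day array 3, to 890 without control array 1 and to 920 without control array 2. An exact permutation test of 3 against 3 arrays cannot give a p below 0.1, so calls rest on limma's shared variance.

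**Figure D1:**
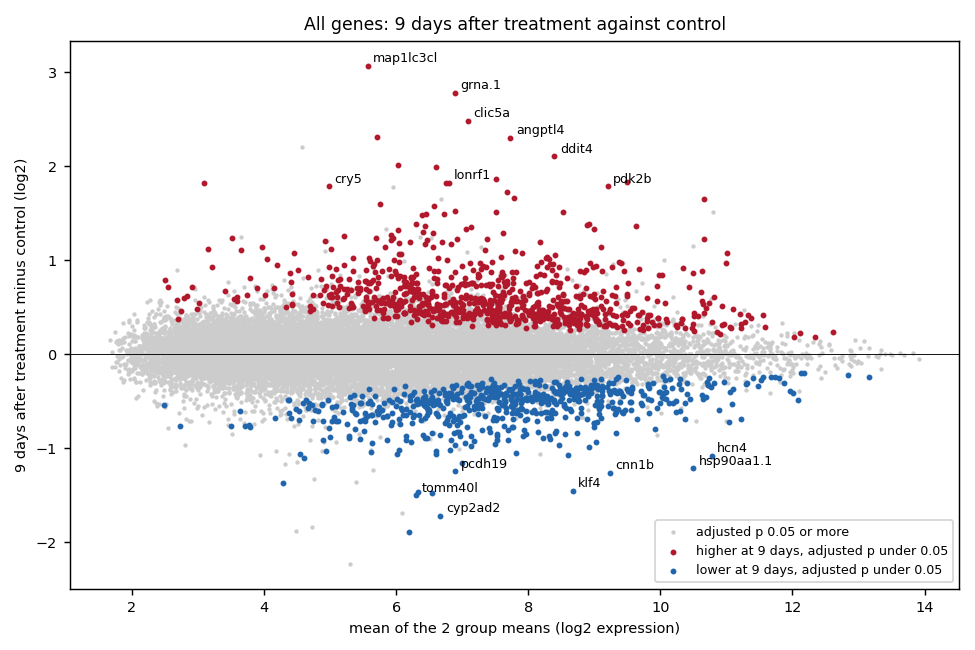
Difference between 9 day and control ventricles (y axis, log2) against the mean of both groups (x axis, log2 expression) for 19260 genes, with 816 genes higher in red and 636 lower in blue at an adjusted p under 0.05. Names mark some of the genes described in the text, such as map1lc3cl at 3.07 and cyp2ad2 at -1.72.

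The largest changes below were ranked among genes with a full symbol that were called with any array left out and whose groups did not overlap. Among the 15 largest such rises, map1lc3cl, a relative of the LC3 genes of autophagy, came first. Its values were 6.85, 7.36 and 7.11 at 9 days, against 3.46, 3.85 and 4.79 in controls, a difference of 3.07 ± 0.34 (8.42-fold, adjusted p = 0.000128). At the end of treatment it had averaged 10.51, so the 9 day level lay between the control level and that peak, 3.40 below the end of treatment (adjusted p = 3.38e-06). The granulin gene grna.1, which encodes a secreted growth factor precursor, had 7.54, 8.45 and 8.83 at 9 days, against 5.57, 5.64 and 5.25 in controls (2.79 ± 0.46, adjusted p = 0.00194). Unlike map1lc3cl it was also above its level at the end of treatment, by 1.89 (adjusted p = 0.00762). The chloride intracellular channel gene clic5a had 8.49, 8.11 and 8.38 at 9 days, against 5.78, 6.11 and 5.62 in controls. This difference of 2.49 ± 0.14 (5.61-fold) had the smallest adjusted p among the 30 largest changes, 1.07e-07, and the 9 day mean was 0.14 below that at the end of treatment, which did not pass the test (adjusted p = 0.587).

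Genes that restrain growth or switch fuel use followed. The gene angptl4, whose secreted product inhibits lipoprotein lipase, had 8.02, 9.24 and 9.38 at 9 days, against 6.26, 6.37 and 7.09 in controls (2.3 ± 0.36, adjusted p = 0.00144). The mTORC1 inhibitor gene ddit4 had 8.61, 9.73 and 10.01 at 9 days, against 6.58, 7.53 and 7.91 in controls (2.11 ± 0.38, adjusted p = 0.00345). In both genes the groups stood apart, although 9 day array 1 was closest to the controls. The gene pdk2b encodes a pyruvate dehydrogenase kinase, which inhibits pyruvate dehydrogenase in mitochondria. It had 9.49, 10.29 and 10.51 at 9 days, against 8.67, 7.5 and 8.76 in controls (1.79 ± 0.35, adjusted p = 0.00515). Its relative pdk2a had 11.28, 11.66 and 11.70 at 9 days, against 10.31, 10.45 and 10.64 in controls, with a tighter difference of 1.08 ± 0.10 (adjusted p = 5.21e-05). The glutamine synthetase gene glulb rose by 1.66 ± 0.25 (adjusted p = 0.00123) and the phosphate transporter gene slc20a1a by 1.5 ± 0.32 (adjusted p = 0.00987), where control array 1 was low, at 5.10 beside 6.53 and 6.32.

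The remaining large rises were lonrf1, a RING finger gene (1.82 ± 0.28), the photolyase gene cry5 (1.79 ± 0.17), nfil3-6, a basic leucine zipper transcription factor gene (1.65 ± 0.26), tmod4, which encodes an actin filament capping protein and is also on the erythroid list (1.58 ± 0.19), the macrophage perforin-like gene mpeg1.1 (1.53 ± 0.19), ddb2, which encodes a DNA damage sensor (1.51 ± 0.14), and olmf4l1 (1.49 ± 0.28). All 15 kept their call when any 1 of the 6 arrays was left out, which was part of how they were chosen. Of the 15, 2 were higher and 4 lower than at the end of treatment, and 9 did not pass that test. Over all genes 7.38% were higher and 11.6% lower than at that time. Against 5 days, 5 were higher and 0 lower, beside 2.87% and 3.25% of all genes. The same 9 day arrays chose these 15 genes, so the counts are not independent of that choice.

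**Figure D2:**
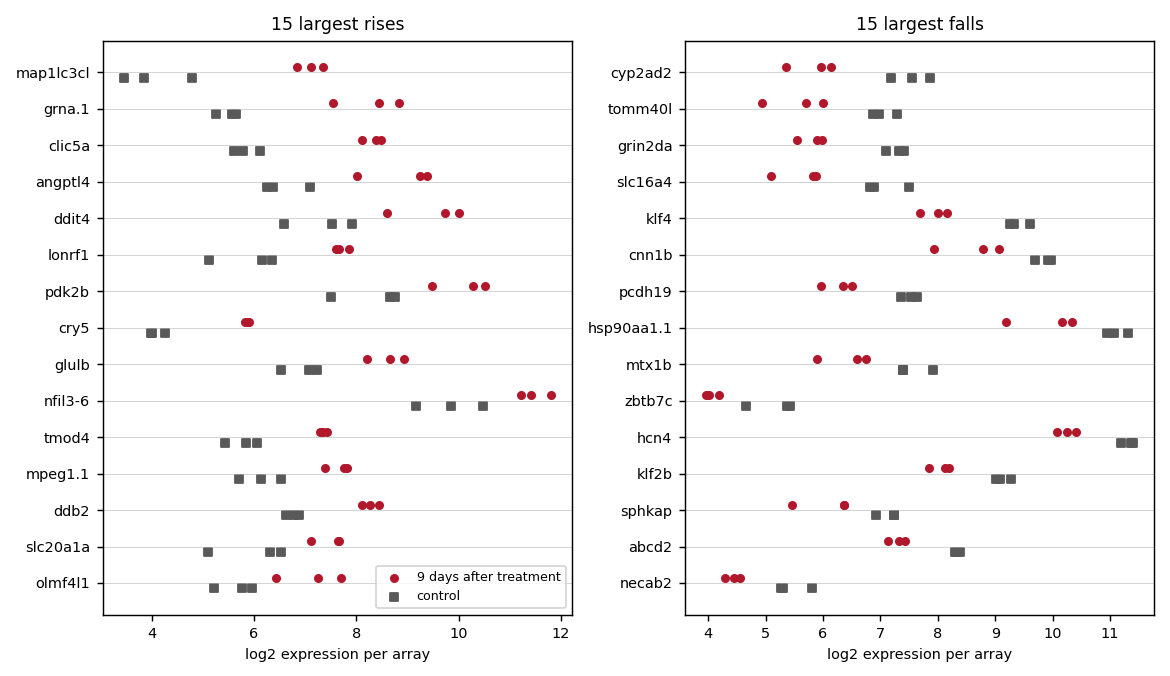
Log2 expression (x axis) of the 15 genes with the largest rise and the 15 with the largest fall on the 3 arrays at 9 days (red circles) and the 3 control arrays (grey squares). In every gene shown the groups do not overlap, by the rule that chose them. In tomm40l, cnn1b and hsp90aa1.1 the lowest 9 day value is that of array 3.

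The largest such fall was that of cyp2ad2, a cytochrome P450 gene, with 6.14, 5.96 and 5.35 at 9 days, against 7.18, 7.55 and 7.87 in controls (-1.72 ± 0.24, 3.29-fold lower, adjusted p = 0.000698). A pair of genes of protein import at the mitochondrial outer membrane also fell. The import channel gene tomm40l had 5.71, 6.0 and 4.93 at 9 days, against 6.98, 7.29 and 6.87 in controls (-1.5 ± 0.23, adjusted p = 0.00135). The metaxin gene mtx1b had 6.59, 6.75 and 5.90 at 9 days, against 7.40, 7.92 and 7.40 in controls (-1.16 ± 0.19, adjusted p = 0.00211). Both were also lower than at the end of treatment, by 0.94 for tomm40l (adjusted p = 0.00861) and by 0.97 for mtx1b (adjusted p = 0.00185).

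Of the Krüppel-like factor genes, which encode zinc finger transcription factors, klf4 had 8.0, 7.69 and 8.16 at 9 days, against 9.33, 9.25 and 9.61 in controls (-1.45 ± 0.17, adjusted p = 0.000167). The endothelial, flow-responsive klf2b had 8.13, 7.84 and 8.20 at 9 days, against 9.27, 9.09 and 9.02 in controls (-1.07 ± 0.15, adjusted p = 0.000699). The values of each group lay within 0.5 of one another in both genes. The muscle chaperone gene hsp90aa1.1, needed for folding myosin, had 10.34, 10.16 and 9.18 at 9 days, against 11.07, 11.31 and 10.94 in controls (-1.21 ± 0.25, adjusted p = 0.0085). Probes may not separate it from its close paralog hsp90aa1.2. The pacemaker channel gene hcn4 had 10.25, 10.40 and 10.07 at 9 days, against 11.40, 11.19 and 11.37 in controls (-1.08 ± 0.11, adjusted p = 0.00012). It had averaged 8.95 at the end of treatment, so the 9 day mean was 1.29 above that time (adjusted p = 1.35e-06) and still below control.

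Other large falls were grin2da, a glutamate receptor subunit gene (-1.48 ± 0.13), slc16a4, of the monocarboxylate transporter family (-1.46 ± 0.24), the calponin gene cnn1b of smooth muscle (-1.26 ± 0.22), the protocadherin gene pcdh19 (-1.24 ± 0.14) and zbtb7c, which encodes a zinc finger protein (-1.10 ± 0.18). The anchor protein gene sphkap (-1.06 ± 0.21), the peroxisomal fatty acid transporter gene abcd2 (-1.04 ± 0.12) and necab2, a calcium-binding protein gene (-1.03 ± 0.19), completed the set. Against the end of treatment 3 of the 15 falls were higher, 5 lower and 7 not called. Over all genes 7.38% were higher and 11.6% lower than at that time. Against 5 days 0 were higher and 5 lower, beside 2.87% and 3.25% of all genes. The same 9 day arrays chose these 15 falls, so the counts are not independent of that choice. At the threshold itself, snx10b was the last gene to pass (0.63 ± 0.19) and trrap the first that did not (-0.42 ± 0.12).

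Gene lists give the wider picture. With 4.24% of all genes higher and 3.3% lower, and a median difference of 0.01 over all genes, the pan leukocyte, macrophage, red cell and autophagy lists held the largest shares of rises, and the mitochondrial ribosome list the largest share of falls. Ribosomal protein genes, 67 in number, had 0 rises and 0 falls, with a median of 0.01.

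**Figure D3:**
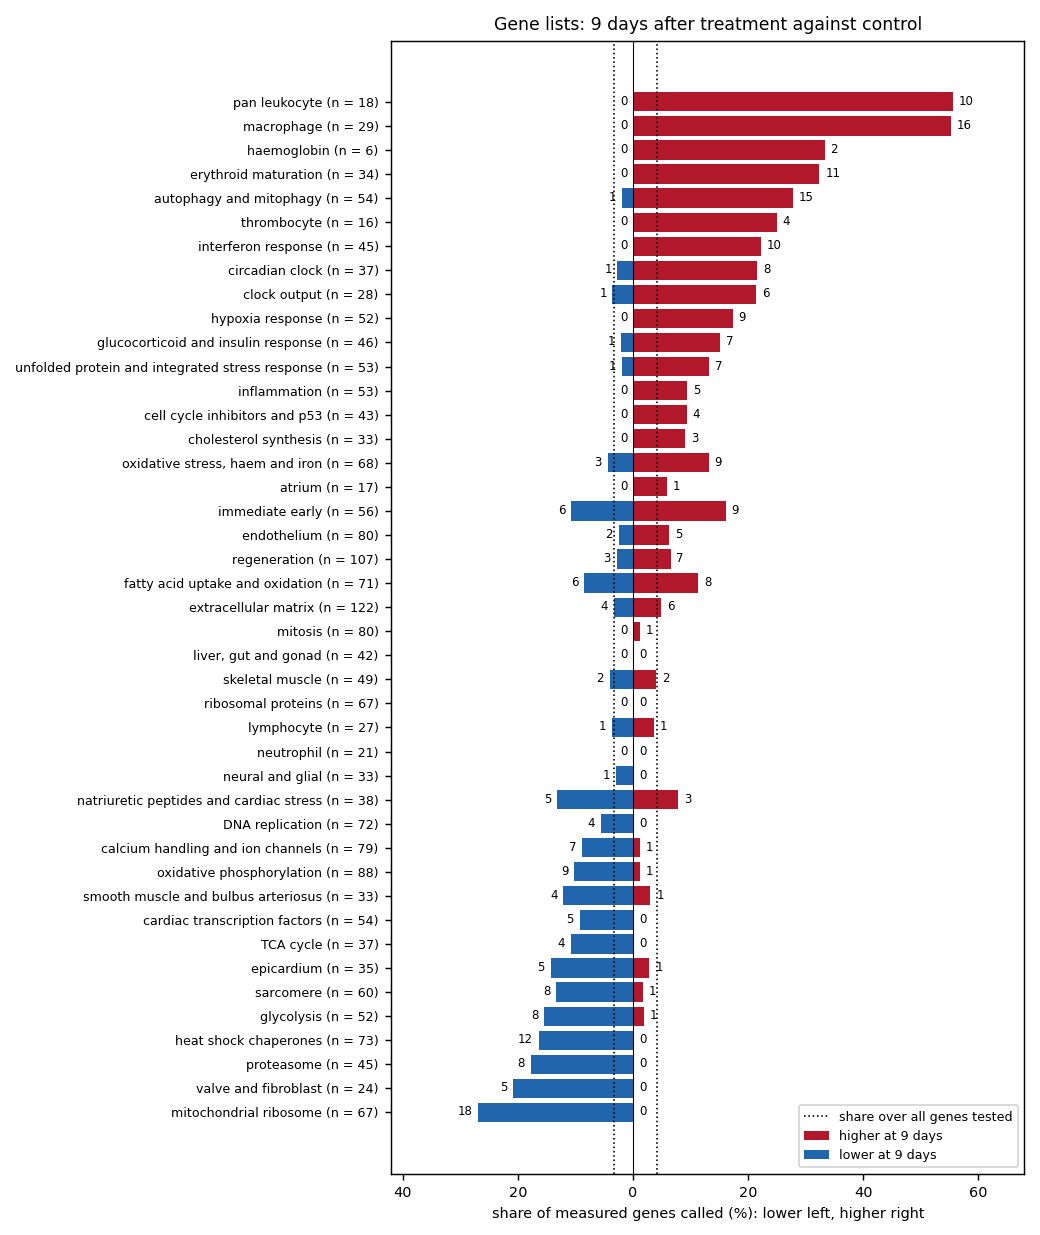
Share of each list's measured genes (x axis, %) that were higher (red, to the right) or lower (blue, to the left) at 9 days than in control, with the number of genes at the bar ends and n the number measured. Dotted lines mark the shares over all genes tested, 4.24% and 3.3%, and the bars run from 10 of 18 pan leukocyte genes higher to 18 of 67 mitochondrial ribosome genes lower.

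Macrophage genes were higher at 9 days as a group: 16 of 29 rose and 0 fell, with a median difference of 0.67. These genes serve engulfment, lysosomal digestion and antigen presentation. The closely related perforin-like pair mpeg1.1 and mpeg1.2, which probes may not separate, had the smallest adjusted p of the list. The granulin gene grna.1 above also belongs to it and had its largest difference. The values of mpeg1.2 were 7.74, 8.24 and 7.97 at 9 days, against 6.82, 6.72 and 6.73 in controls (1.23 ± 0.12, adjusted p = 7.22e-05), and those of mpeg1.1 were 7.82, 7.39 and 7.76 at 9 days, against 6.13, 6.53 and 5.71 in controls (adjusted p = 0.00027). The receptor gene csf1ra, through which macrophages receive their survival signal, had 9.03, 8.50 and 8.52 at 9 days, against 7.64, 7.91 and 7.56 in controls (0.98 ± 0.14, adjusted p = 0.000767). The antigen presentation genes cd74a and cd74b rose by 0.97 ± 0.13 and 1.03 ± 0.14, the superoxide-producing oxidase gene cybb by 1.15 ± 0.20, the lysosomal gene cd68 by 0.55 ± 0.11 and the complement gene c1qb by 0.88 ± 0.18. On the 3 arrays at 9 days the list's summed linear signal was 7642 to 8687, against 4732 to 5547 in controls. In bulk ventricles, more cells of a type and more RNA per cell cannot be told apart, and the same holds for every cell type below. Against 5 days 0 macrophage genes were called either way, and against the end of treatment 1 was higher and 6 lower, where over all genes 2.87% and 3.25% were called higher and lower against 5 days, and 7.38% and 11.6% against the end of treatment.

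Genes shared by white blood cells behaved similarly, with 10 of 18 pan leukocyte genes higher, 0 lower and a median of 0.55. The myeloid transcription factor gene spi1b had 9.02, 8.87 and 8.92 at 9 days, against 7.90, 8.18 and 7.57 in controls (1.06 ± 0.14, adjusted p = 0.000426). The GTPase gene rac2 rose by 0.81 ± 0.13, the actin regulator coro1a by 0.74 ± 0.14 and the chemokine receptor gene cxcr4b by 0.91 ± 0.18. Of 21 neutrophil genes 0 rose and 0 fell, and of 27 lymphocyte genes 1 rose and 1 fell, beside 4.24% and 3.3% of all genes. Median levels on the 9 day arrays were 5.17 to 5.79 for neutrophil and 3.93 to 4.08 for lymphocyte genes, against 6.65 to 6.86 for macrophage genes. Differences near background are shrunk by RMA, so few calls in these lists say little about such cells. The neutrophil enzyme genes mpx and lyz differed by 0.14 ± 0.25 and 0.84 ± 0.57, and lyz on the 9 day arrays ranged widely, at 5.17, 7.66 and 6.08. The neutrophil marker gene nccrp1 had a higher level, 8.07 at 9 days and 8.1 in controls, and differed by -0.03 ± 0.17. The T cell kinase gene lck differed by -0.01 ± 0.19. The sums over neutrophil genes, 2753 to 3185 at 9 days and 2569 to 4114 in controls, overlapped. No test compared the lists with each other.

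Interferon-induced genes rose in 10 of 45 and fell in 0, with a median of 0.33 and 43 of the 45 differences above 0. The ubiquitin-like gene isg15 had 6.68, 6.48 and 6.40 at 9 days, against 5.02, 5.48 and 5.43 in controls (1.22 ± 0.20, adjusted p = 0.00168). The RNA sensor gene dhx58 had 5.76, 5.70 and 5.58 at 9 days, against 4.64, 4.61 and 4.94 in controls (0.95 ± 0.15, adjusted p = 0.00144), and the peptide transporter gene tap2a rose by 1.03 ± 0.19. Groups did not overlap in any of the 3 genes, which were chosen for small adjusted p, and did not overlap in 25.5% of all genes. Inflammation genes rose in 5 of 53 and fell in 0, or in 3 without control array 1. Examples were the complement gene c7a (0.88 ± 0.13), nfkbiab, which encodes an inhibitor of NF-kappaB (0.98 ± 0.18), and stat3, a transducer of cytokine signals (0.43 ± 0.09). The cytokine gene il11a, with 5.02, 4.44 and 4.57 at 9 days against 4.22, 3.99 and 4.40 in controls, did not pass the test (adjusted p = 0.559), and was 4.17 below the end of treatment (adjusted p = 2.33e-06).

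Some red cell genes remained higher. Of the 6 measured haemoglobin genes 2 rose and 0 fell (median 0.16), and 2 differences were below 0. Among those that did not pass the test were hbae3 (0.28 ± 0.17) and hbbe3 (-0.25 ± 0.16). The adult globin gene hbba2 had 9.63, 9.84 and 9.55 at 9 days, against 7.87, 8.96 and 8.18 in controls (1.34 ± 0.20, adjusted p = 0.00104), and hbaa2 had 9.82, 9.47 and 9.56 at 9 days, against 7.58, 9.03 and 8.08 in controls (1.39 ± 0.28, adjusted p = 0.0067). Control arrays spread more than 9 day arrays in both, and control array 1 was the lowest. Globin paralogs are similar enough for probes to be shared, and hbaa1 and hbba1 were not measured under those names. Of 34 erythroid maturation genes 11 rose and 0 fell (median 0.21). They included alas2, which starts haem synthesis in red cells, with 11.19, 11.41 and 11.23 at 9 days, against 9.76, 10.50 and 9.90 in controls (1.22 ± 0.17, adjusted p = 0.000483). The anion exchanger gene slc4a1a rose by 1.2 ± 0.20, the red cell carbonic anhydrase gene cahz by 1.36 ± 0.17 and the haem synthesis gene uros by 0.73 ± 0.08. Relative to the end of treatment slc4a1a was lower by 0.97 (adjusted p = 0.00191) and relative to 5 days lower by 0.70 (adjusted p = 0.0431). In neither comparison did alas2, cahz or uros pass the test. Of the 34 genes, 3 were higher and 9 lower than at the end of treatment, beside 7.38% and 11.6% of all genes. Against 5 days 0 were higher and 5 lower, beside 2.87% and 3.25% of all genes. Thrombocyte genes rose in 4 of 16, among them rgs18, a regulator of G protein signals (0.70 ± 0.14), and in 2 without control array 1. Of the thrombocyte marker genes tubb1 rose (1.03 ± 0.23), while itga2b (0.08 ± 0.21) and gp9 (-0.57 ± 0.23) did not pass the test. The call of tubb1 was lost in limma fits without control array 1 (adjusted p = 0.0558) or control array 3 (adjusted p = 0.0511). The rise of fli1 (0.28 ± 0.07) may not be of thrombocytes, since fli1 also served as an endothelial marker. Its call was lost without control array 1, control array 2, 9 day array 1 or 9 day array 3.

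The level of red cell transcripts differed between the 2 groups, so it cannot be told apart from the comparison itself. Over 40 haemoglobin and erythroid genes the mean log2 level was 7.57, 7.6 and 7.57 at 9 days, against 7.06, 7.41 and 7.18 in controls. Summed linear signals of the 6 measured haemoglobin genes were 1583 to 1797 at 9 days and 517 to 1101 in controls. With that mean level as a covariate, 46 genes were called between 9 days and control, 33 of them among the 1452, and at equal residual variance the covariate multiplied the standard error by 1.71. The 40 genes stayed among the genes tested, and arrays of the 2 groups did not overlap in the covariate, so a loss of calls was built in. Of 150 called genes chosen for description, 10 kept their call in that fit, among them clic5a, cry5, ddb2, mtx1b, mpeg1.2, pdk2a, grin2da and pcdh19. Whether these are independent of red cell content was not tested.

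**Figure D4:**
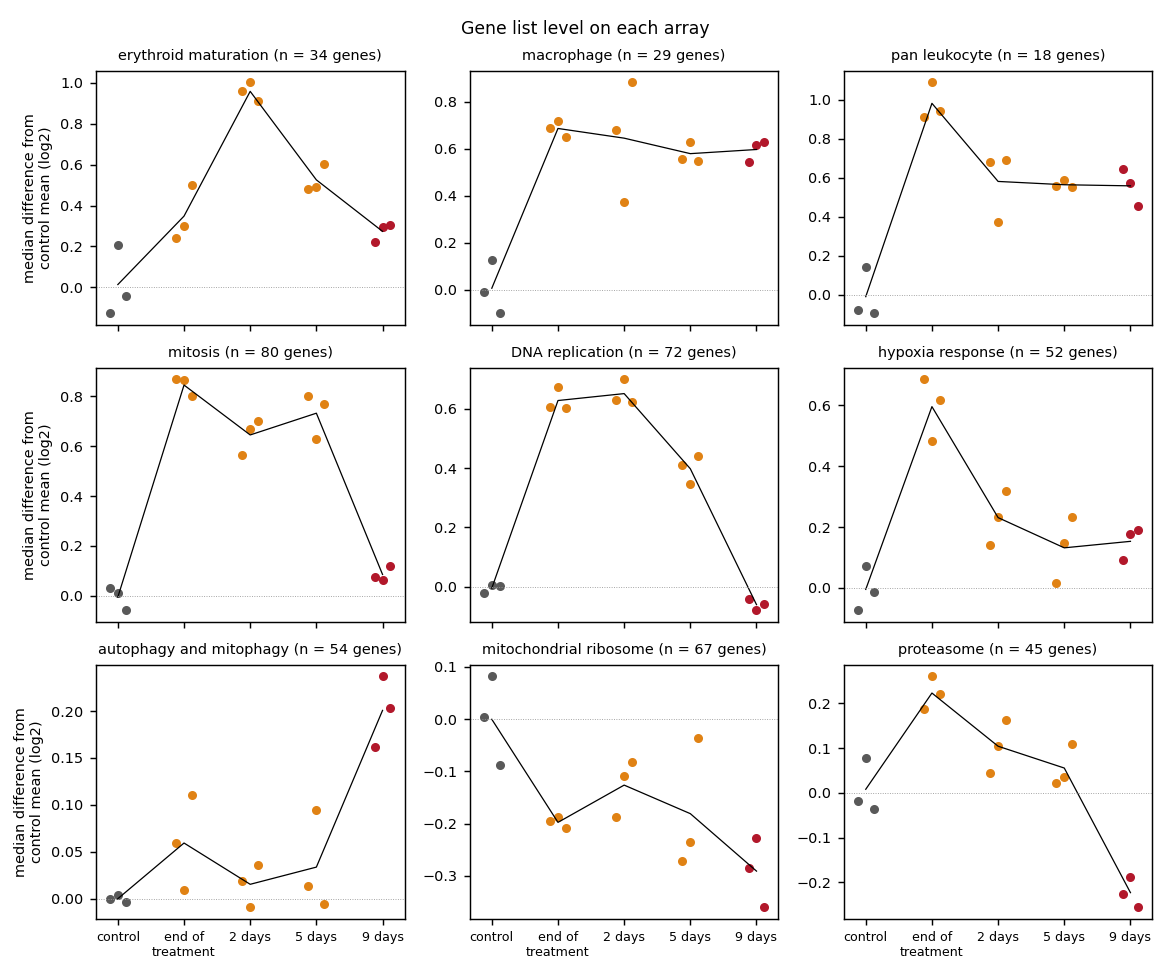
Level of 9 gene lists on each of the 15 arrays (points; y axis, median over the list's genes of the difference from the control mean, log2), with lines through group means and 9 day arrays in red. The 9 day arrays lie at 0.54 to 0.63 for macrophage genes, at 0.06 to 0.12 for mitosis genes and at -0.36 to -0.23 for mitochondrial ribosome genes.

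Cell division genes were near control levels. Of 80 mitosis genes 1 rose and 0 fell (median 0.09), and of 72 DNA replication genes 0 rose and 4 fell (median -0.06). The replication clamp gene pcna had 7.47, 7.42 and 7.65 at 9 days, against 7.28, 7.64 and 7.46 in controls (0.05 ± 0.11, adjusted p = 0.844). The mitotic kinase gene cdk1 had 4.98, 4.61 and 4.66 at 9 days, against 4.44, 4.66 and 4.88 in controls (0.09 ± 0.13, adjusted p = 0.781). Arrays overlapped in both genes. At 5 days pcna and cdk1 had been higher, and the 9 day means were 1.15 and 1.98 lower (adjusted p = 1.42e-05 and 4.09e-07). In all, 46 of 80 mitosis genes and 32 of 72 replication genes were lower at 9 days than at 5 days, beside 3.25% of all genes. The gene that stayed above control was cdc25b, a phosphatase that activates mitotic kinases (0.47 ± 0.10, adjusted p = 0.00719), and it too was below its 5 day level by 0.69. Below control were rnaseh2a, which removes RNA from DNA (-0.55 ± 0.11), and 3 others, and the falls numbered 2 without control array 1.

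Genes of the list of cell cycle inhibitors and p53 were higher in 4 of 43 (0 lower), and in 1 without control array 1, 9 day array 2 or 9 day array 3. The inhibitor gene cdkn1bb, of the p27 family, had 8.38, 8.68 and 8.76 at 9 days, against 7.65, 7.78 and 7.83 in controls (0.86 ± 0.13, adjusted p = 0.000962). It was also 0.92 above the level at 5 days (adjusted p = 0.000445) and 0.71 above that at the end of treatment (adjusted p = 0.000732). In the same list 12 genes were higher and 1 lower than at 5 days, beside 2.87% and 3.25% of all genes.

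Autophagy genes, which serve the digestion of a cell's own proteins and organelles, rose in 15 of 54 and fell in 1, with a median of 0.15. The level of a list was the median difference from the control mean, so control arrays lie around 0 by definition. On that scale the 9 day arrays lay at 0.16 to 0.24, and each control array rounded to 0. These levels restate the differences from control and add no test. The cargo receptor gene sqstm1 had 9.40, 9.36 and 9.46 at 9 days, against 8.88, 8.84 and 8.66 in controls (0.61 ± 0.10, adjusted p = 0.00166). The mitophagy receptor gene bnip3 had 9.45, 9.60 and 9.96 at 9 days, against 8.86, 8.38 and 8.33 in controls (1.15 ± 0.19, adjusted p = 0.00199), and its relative bnip3lb rose by 0.44 ± 0.07. The membrane carrier gene atg9a had 7.78, 7.88 and 7.92 at 9 days, against 7.26, 7.25 and 7.40 in controls (0.56 ± 0.09, adjusted p = 0.00196). Lysosomal proteases followed, with ctsd at 0.48 ± 0.07 and ctsla at 0.58 ± 0.10, as did tfe3a, a transcription factor of lysosomal genes (0.52 ± 0.10), and the LC3 gene map1lc3b (0.42 ± 0.09). Against 5 days 13 of the 54 were higher and 0 lower, beside 2.87% and 3.25% of all genes. Among those higher were bnip3 by 1.2 and sqstm1 by 0.62 (adjusted p = 0.00118 and 0.00126). Cathepsin genes are also abundant in macrophages, whose markers moved in the same direction, and their part in these rises was not tested.

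Proteasome genes went the other way, with 0 of 45 higher, 8 lower and a median of -0.24. The regulatory subunit gene psmd11b had 7.56, 7.43 and 7.64 at 9 days, against 8.04, 8.15 and 7.97 in controls (-0.51 ± 0.09, adjusted p = 0.0025). The subunit genes psmd2 and psmd12 fell by 0.30 and 0.42. Of the 45, 13 were lower than at 5 days and 33 lower than at the end of treatment, beside 3.25% and 11.6% of all genes. Chaperone genes fell in 12 of 73 and rose in 0. They included hspd1, the mitochondrial chaperonin, with 7.03, 7.34 and 6.90 at 9 days, against 7.78, 8.16 and 7.95 in controls (-0.87 ± 0.16, adjusted p = 0.00327). The cytosolic co-chaperone genes stip1 and ptges3b fell by 0.69 and 0.72, and unc45b, a myosin chaperone gene, by 0.60. Proteasome falls numbered 3 without 9 day array 3, 4 without control array 1 or 2, and 5 without control array 3 or 9 day array 2. Chaperone falls numbered 6 without 9 day array 3.

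Mitochondrial ribosome genes, whose products translate the few proteins encoded by mitochondrial DNA, fell in 18 of 67 and rose in 0. The median was -0.31, and 63 of the 67 differences were below 0. The subunit gene mrpl14 had 7.59, 7.86 and 7.47 at 9 days, against 8.25, 8.43 and 8.30 in controls (-0.68 ± 0.11, adjusted p = 0.00166), and mrpl21 had 7.86, 8.02 and 7.91 at 9 days, against 8.45, 8.50 and 8.41 in controls (-0.52 ± 0.10, adjusted p = 0.00403). Array 3 was the lowest 9 day array in mrpl14, while array 1 was in mrpl21. For mrps17 the fall was 0.77, with 9 day array 3 at 6.24 beside 6.87 and 6.94. The falls numbered 7 without 9 day array 3, 9 without control array 2, 10 without control array 1 and 12 without 9 day array 1, and the list's level on the 9 day arrays stayed below all controls.

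Energy metabolism shifted by small amounts. Oxidative phosphorylation genes fell in 9 of 88 and rose in 1, with a median of -0.09. The ATP synthase membrane subunit gene atp5mc1 had 11.88, 11.98 and 11.69 at 9 days, against 12.36, 12.34 and 12.30 in controls (-0.48 ± 0.08, adjusted p = 0.00217), and uqcrc1, of the third respiratory complex, fell by 0.34. In the tricarboxylic acid cycle list 4 of 37 fell and 0 rose, among them the aspartate aminotransferase gene got2b (-0.47 ± 0.07, adjusted p = 0.00144) and the dehydrogenase subunit gene idh3a (-0.34 ± 0.07). Of 52 glycolysis genes 8 fell and 1 rose (median -0.02), with pygmb, a glycogen phosphorylase gene, at -0.33 ± 0.06 and pgm1, which interconverts glucose phosphates, at -0.33 ± 0.06. The glycolysis falls numbered 4 without control array 1, control array 2 or 9 day array 3, and 5 without 9 day array 2, and in each of these 4 fits 0 genes of the list rose. The oxidative phosphorylation falls numbered 4 without control array 1 or 9 day array 3, 5 without control array 2 or 9 day array 1, and 14 without 9 day array 2. Against the end of treatment 30 of the 52 glycolysis genes were lower and 6 higher, beside 11.6% and 7.38% of all genes.

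Fatty acid uptake and oxidation genes split, with 8 of 71 higher and 6 lower. Those higher were led by genes that regulate fuel choice, pdk2a, angptl4 and pdk2b above, and by ucp2, a mitochondrial carrier gene with 7.80, 8.15 and 8.16 at 9 days, against 7.02, 7.16 and 7.40 in controls (0.84 ± 0.13, adjusted p = 0.00124). The ketone body enzyme gene bdh1 rose by 0.61 ± 0.08. The 6 falls included cpt2, which encodes the inner membrane carnitine palmitoyltransferase (-0.65). They numbered 0 without 9 day array 3, 2 without control array 2, and 3 without control array 1 or 3. The list's median was -0.12.

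Hypoxia response genes, which the oxygen-sensitive transcription factor HIF induces, rose in 9 of 52 and fell in 0, with a median of 0.11. Some of these also belong to other lists: angptl4, ddit4, bnip3 and bnip3lb above. The insulin-like growth factor binding protein gene igfbp1a had 9.02, 10.01 and 9.71 at 9 days, against 7.57, 8.42 and 8.61 in controls (1.38 ± 0.27, adjusted p = 0.00588), and loxl2a, which crosslinks collagen, had 7.90, 7.38 and 8.15 at 9 days, against 5.92, 6.52 and 6.93 in controls (1.35 ± 0.27, adjusted p = 0.00592). The glucose transporter gene slc2a3a had 3.95, 3.29 and 3.94 at 9 days, against 3.60, 3.13 and 3.36 in controls (adjusted p = 0.439). It had averaged 7.98 at the end of treatment, 4.25 above the 9 day mean (adjusted p = 2.4e-08). Against the end of treatment 26 of the 52 were lower and 8 higher, beside 11.6% and 7.38% of all genes. Without control array 1 or control array 3 the rises numbered 6.

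Rises also came from some clock genes and clock-controlled or light-induced genes. Of 37 circadian clock genes 8 rose and 1 fell, and of 28 clock output genes 6 rose and 1 fell. The medians were 0.15 and 0.09, with 15 and 12 differences below 0. In both lists the levels of the 9 day and control arrays overlapped. In zebrafish many tissues sense light directly, and cry5, per2, cry1a, lonrf1 and ddb2 are genes that light induces there. The 9 day values of cry5 were 5.83, 5.91 and 5.88, against 4.27, 3.99 and 4.0 in controls (1.79 ± 0.17, adjusted p = 5.21e-05). The means of cry5 had been 6.63 at the end of treatment, 5.63 at 2 days and 5.36 at 5 days. The period gene per2 had 8.69, 8.54 and 9.21 at 9 days, against 7.66, 7.63 and 8.11 in controls (1.02 ± 0.17, adjusted p = 0.00194). A related photolyase-like gene, cry-dash, rose by 1.17 ± 0.14 and cry1a by 0.46 ± 0.09. Arrays of the 2 groups did not overlap in these genes, as in 25.5% of all genes, and for cry5 this was part of how it was chosen.

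The leucine zipper gene nfil3-6 had 11.23, 11.42 and 11.80 at 9 days, against 9.16, 9.86 and 10.48 in controls (1.65 ± 0.26, adjusted p = 0.00144), and tefa, which encodes an activator of the same DNA element, had 9.24, 9.31 and 9.38 at 9 days, against 8.57, 8.58 and 8.86 in controls (0.64 ± 0.10, adjusted p = 0.00104). The remaining clock genes chosen for description did not pass the test. The differences were -0.19 ± 0.20 for bmal1a, -0.23 ± 0.18 for bmal1b and 0.26 ± 0.13 for clocka, the positive arm of the loop. They were 0.05 ± 0.23 for per1a, 0.19 ± 0.11 for per3 and 0.32 ± 0.12 for nr1d1, of the negative arm, and -0.09 ± 0.09 and -0.08 ± 0.13 for the output genes dbpa and dbpb. The hour of sampling is not stated in the labels used here, and its part in these differences was not tested. Without control array 1 or 9 day array 3 the clock rises numbered 4.

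**Figure D5:**
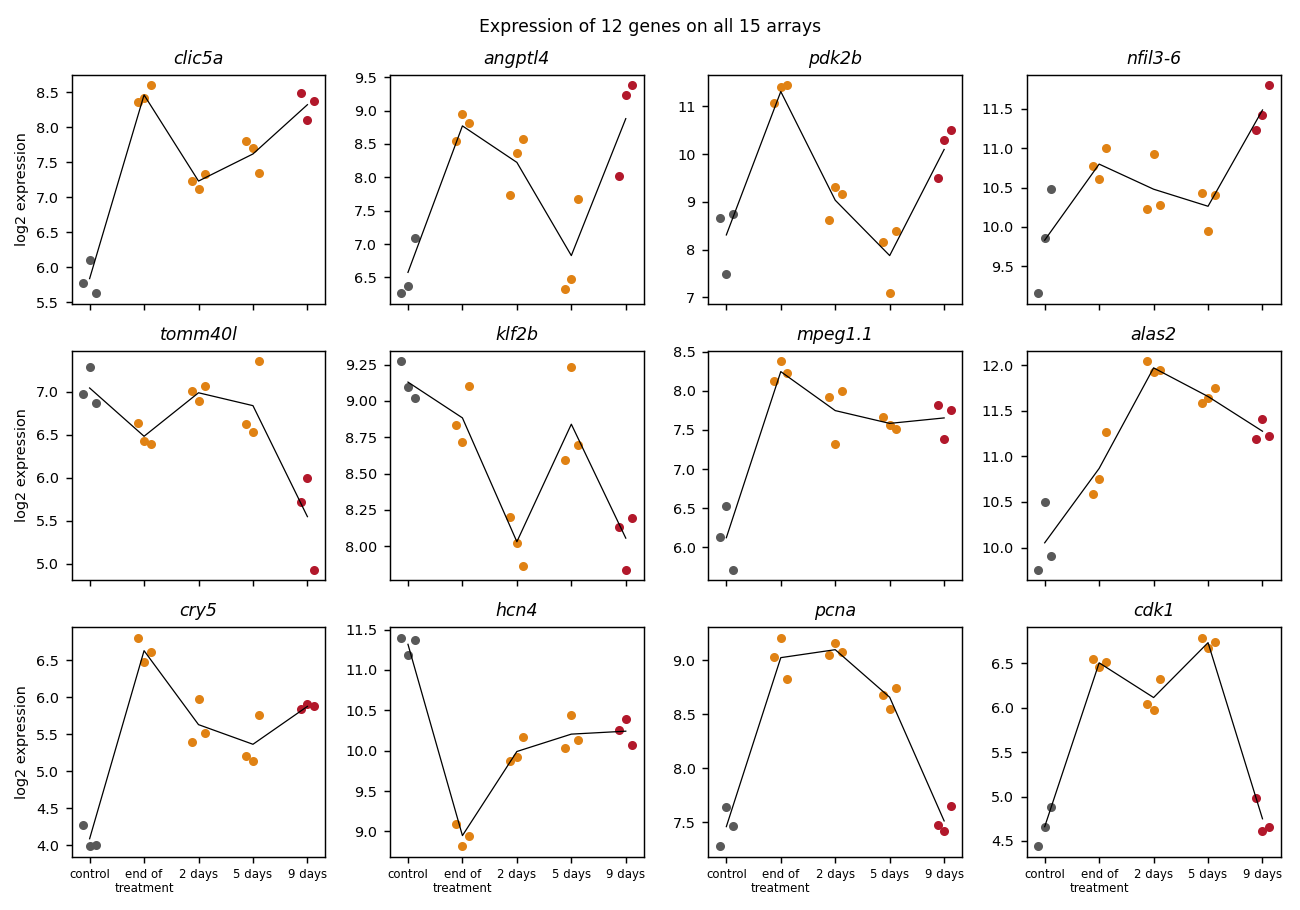
Log2 expression (y axis) of 12 genes on all 15 arrays (points), in order of time from control to 9 days, with lines through group means and 9 day arrays in red. At 9 days angptl4, pdk2b and nfil3-6 are above and tomm40l and klf2b below their 5 day levels, while pcna and cdk1 overlap control.

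Stress and hormone response lists held rises in larger shares than all genes. Of 53 genes of the unfolded protein and integrated stress responses 7 rose and 1 fell. The transcription factor gene atf5a had 6.59, 6.57 and 6.47 at 9 days, against 5.69, 5.60 and 5.38 in controls (0.99 ± 0.11, adjusted p = 0.000157). The pseudokinase gene trib3 rose by 0.88 ± 0.17 (adjusted p = 0.00431), and shmt2, a mitochondrial serine enzyme, rose by 0.80 ± 0.14. Of 46 glucocorticoid and insulin response genes 7 rose and 1 fell, and the kinase gene sgk1 rose by 0.75 ± 0.15 while the factor gene klf15 fell by 0.69. Both lists hold trib3. The stress response rises numbered 3 without control array 1 and 4 without control array 3, 9 day array 2 or 9 day array 3, and the hormone response rises numbered 4 without control array 1, 9 day array 2 or 9 day array 3.

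Immediate early and growth factor response genes went both ways, with 9 of 56 higher and 6 lower. The MAP kinase phosphatase gene dusp4 had 9.70, 9.83 and 10.16 at 9 days, against 8.86, 8.79 and 9.11 in controls (0.98 ± 0.12, adjusted p = 0.000268), and dusp6 rose by 0.87 ± 0.13. The rises included sgk1, and the falls klf4, klf2b and klf15, all given above. The rises numbered 3 without control array 1 and 4 without 9 day array 2 or 9 day array 3.

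For oxidative stress, haem and iron, 9 of 68 genes rose and 3 fell. The biliverdin reductase gene blvra, which acts after haem is opened, had 8.69, 8.58 and 8.57 at 9 days, against 7.86, 7.91 and 8.02 in controls (0.68 ± 0.09, adjusted p = 0.000337). The haem transporter gene slc48a1a rose by 0.41 ± 0.07, hmox2a, a haem oxygenase gene, by 0.77 ± 0.15 and the secreted glutathione peroxidase gene gpx3 by 0.88 ± 0.16. The inducible haem oxygenase gene hmox1a had 7.14, 7.32 and 7.48 at 9 days, against 7.24, 7.18 and 7.66 in controls (adjusted p = 0.921). The sulfiredoxin gene srxn1 fell by 0.59, and the falls numbered 1 without control array 2 or 9 day array 3.

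Natriuretic peptide genes are markers of cardiac wall stress. The level of nppa was 11.36, 11.49 and 11.40 at 9 days, against 10.87, 10.88 and 11.21 in controls (0.43 ± 0.09, 1.35-fold, adjusted p = 0.00975). The level of nppb was 9.79, 10.29 and 10.21 at 9 days, against 9.48, 9.71 and 10.20 in controls, which did not pass the test (0.30 ± 0.17, adjusted p = 0.331). Groups did not overlap in nppa and did in nppb, and relative to the end of treatment nppa was 0.97 and nppb 1.92 lower (adjusted p = 2.66e-06 and 1.02e-06). The clearance receptor gene npr3 differed from control by -0.41 ± 0.24 (adjusted p = 0.346) and was 1.65 above the end of treatment. The vasoconstrictor gene edn1 had 7.23, 7.34 and 6.77 at 9 days, against 5.72, 5.92 and 5.62 in controls (1.36 ± 0.17, adjusted p = 0.000275), and fhl2a, a LIM domain gene, fell by 1.02. In that list of 38 natriuretic and cardiac stress genes 3 rose and 5 fell, with 2 falls without control array 1 or 9 day array 3 and 3 without control array 2 or 9 day array 2.

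Of 60 sarcomere genes 8 fell and 1 rose, with a median of -0.10. The Z-disc gene csrp3 had 11.92, 11.83 and 11.68 at 9 days, against 12.18, 12.34 and 12.14 in controls (-0.41 ± 0.07, adjusted p = 0.0032), and obscnb, an obscurin gene, fell by 0.54. The giant titin genes ttn.1 and ttn.2, neighbours of similar sequence, differed by -0.71 ± 0.18 and -0.68 ± 0.18, and ttn.1 lost its call without control array 1 (adjusted p = 0.0756). The falls numbered 3 or 4 in each fit without 1 array, and the rises 0 to 2. The atrial and ventricular myosin heavy chain genes myh6, myh7 and myh7l did not pass the test. The atrial gene myh6 had 10.57, 10.80 and 10.56 at 9 days, against 11.34, 11.25 and 11.46 in controls (adjusted p = 0.149). The ventricular gene myh7, also known as vmhc, differed by 0.67 ± 0.32 (adjusted p = 0.235), and another of its transcript clusters went the other way, at -0.57. The ventricular gene myh7l differed by -0.04 ± 0.06.

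Calcium handling and ion channel genes fell in 7 of 79 and rose in 1, and fewer fell without 9 day array 2 (1), 9 day array 3 (2), control array 1 or 2 (3), or control array 3 (4). The pacemaker gene hcn4 above led the falls. The rise was that of the adrenergic receptor gene adrb2b, with 7.91, 8.46 and 9.27 at 9 days, against 6.33, 6.77 and 7.36 in controls (1.73 ± 0.39, adjusted p = 0.0123), and it lost its call without 9 day array 3 (adjusted p = 0.0666) or control array 1 (adjusted p = 0.0589). Among cardiac transcription factor genes 5 of 54 fell and 0 rose, with irx1a, an Iroquois factor gene, at 9.80, 9.58 and 9.17 at 9 days, against 10.45, 10.40 and 10.08 in controls (-0.79 ± 0.15, adjusted p = 0.0041). It was the member that kept its call with any array left out, and the falls numbered 1 without control array 1, 2 without control array 2 or 9 day array 3, and 3 without 9 day array 2.

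Of 80 endothelial genes 5 rose and 2 fell, close to the shares over all genes, and cdh5, the junction protein of endothelium, had 10.53, 10.46 and 10.54 at 9 days, against 10.24, 10.20 and 10.25 in controls (0.28 ± 0.06, adjusted p = 0.00798). The scavenger receptor gene stab1 rose by 0.73 ± 0.15, while the receptor gene kdrl differed by -0.05 ± 0.09. Of 33 smooth muscle and bulbus arteriosus genes 4 fell and 1 rose. The smooth muscle myosin gene myh11a had 7.70, 7.58 and 7.34 at 9 days, against 8.22, 8.16 and 8.79 in controls (-0.85 ± 0.15, adjusted p = 0.0032). The elastin gene elnb, typical of the bulbus, had 5.48, 5.23 and 5.03 at 9 days, against 5.73, 6.35 and 8.74 in controls (adjusted p = 0.0638), with control array 3 far above the rest. The list summed to 12800 to 15030 at 9 days and 15340 to 16510 in controls, and the part of bulbus tissue in the fall of cnn1b and klf4 was not tested. Without control array 1 or 2 the falls numbered 6, and without 9 day array 3 they numbered 2.

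Epicardial genes fell in 5 of 35 and rose in 1. The epicardial factor gene tcf21 had 8.83, 8.44 and 7.96 at 9 days, against 9.19, 9.26 and 8.79 in controls (-0.67 ± 0.17, adjusted p = 0.0229), and tbx18, likewise an epicardial factor, differed by -0.72 ± 0.18. Groups overlapped in tcf21, since 9 day array 1 was above control array 3. Without 9 day array 3 the falls numbered 0, with tcf21 at adjusted p = 0.105 and tbx18 at 0.103, and they numbered 1 without control array 2, 2 without 9 day array 2 and 3 without control array 1. The rises numbered 0 without 9 day array 1 or any 1 control array. Of 24 valve and fibroblast genes 5 fell and 0 rose, or 2 without control array 1, control array 2, 9 day array 2 or 9 day array 3. The receptor gene ngfra fell by 0.87 (adjusted p = 0.0102).

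Extracellular matrix genes rose in 6 of 122 and fell in 4, close to the shares over all genes. The fibulin-like gene efemp1 had 7.90, 7.81 and 7.92 at 9 days, against 7.07, 6.87 and 7.06 in controls (0.88 ± 0.13, adjusted p = 0.000788), and loxl2a is given above. The falls numbered 0 without 9 day array 2 or 9 day array 3 and 2 without control array 2, and the rises 3 without control array 3 or 9 day array 3. Of 107 genes linked to heart or fin regeneration 7 rose and 3 fell, and the leading rises were the macrophage gene mpeg1.1 and the red cell genes cahz and klf1, which that list shares with others. Its falls numbered 1 without control array 2, 9 day array 2 or 9 day array 3, and 5 without control array 3 or 9 day array 1. In cholesterol synthesis 3 of 33 rose and 0 fell, beside 4.24% and 3.3% of all genes, but the median was -0.07 and 21 of the 33 differences were below 0. The rises were led by msmo1, a sterol oxidase gene, with 8.47, 8.38 and 8.53 at 9 days, against 7.68, 7.80 and 7.75 in controls (0.71 ± 0.11, adjusted p = 0.00144). They numbered 1 without control array 1 or 9 day array 3. Of 49 skeletal muscle genes 2 rose and 2 fell. In fits without 1 array 0 or 1 rose and 1 to 3 fell, and the rises of the muscle myosin gene myhb (0.71 ± 0.18) and of the creatine kinase gene ckmb lost their call in some or all of them. Of 17 atrial genes 1 rose, and of 33 neural and glial genes 1 fell, which numbered 0 without control array 1, control array 2, 9 day array 2 or 9 day array 3. Of 42 liver, gut and gonad genes 0 rose and 0 fell.

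Compared with the end of treatment, 3662 genes (19%) differed at 9 days, 1421 higher and 2241 lower. Compared with 5 days, 1178 (6.12%) differed, 552 higher and 626 lower, which was 664 without 9 day array 3 and 615 without array 3 of the 5 day group. The 9 day arrays enter each of these comparisons, so the counts are not independent of one another.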

How the data were processed

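Per the submitters' processing notes, the authors made the deposited log2 expression values with RMA in the R package oligo, while the sources used here give no versions, array annotation or genome build. RMA removes background, gives all arrays the same quantiles and combines probes, and it shrinks differences of genes near background. All transcript clusters were read as deposited. A platform annotation gave 1 symbol to 20806 clusters, several to 855 and none here to 53551, and 20323 matched the reference gene table by gene ID. For 1365 genes with more than 1 cluster, the cluster with the largest average level stood for the gene, giving 19260 genes, 2357 with placeholder symbols.

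Groups followed the sample titles. limma 3.58.1 in R 4.3.3 fitted 1 mean per group over all 15 arrays, with an intensity trend in the variance, 2-sided, and Benjamini-Hochberg adjustment over all genes within each comparison at 0.05. The fit held no covariate and no filter on low values. Data and figures were prepared in Python 3.11.15 with pandas 2.3.3 and matplotlib 3.10.9. The p-values measure the spread between pools of 3 ventricles.

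Earlier results of these data were known when the 43 gene lists, the naming rule and the alternatives were chosen. The rule takes the 15 largest rises and 15 largest falls that were called with and without each array and whose arrays do not overlap, up to 4 members of each list by adjusted p, genes chosen for the model and those nearest the threshold. Further list members are named with their values, chosen after these were seen. Lists are described by counts, with no set test.

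In simulated data of 19260 genes for 9 days against control, 100 genes were changed by 0.5 and 100 by 1 (log2). Of these 37% and 84% were recovered, with 9 false calls. The simulated noise was independent between genes and far fewer genes changed than were called here, so these rates need not hold for the data. Standard errors of differences had a median of 0.143. Alternatives were array weights, median centring, cyclic loess, variance estimates without the trend or made robust, leaving out the genes of lowest level, the mean of a gene's clusters, all clusters, only the 6 arrays compared, a replicate block, a red cell covariate, a 1.5-fold minimum and leaving out each array. Deviations of 9 day and control arrays with the same number correlated at -0.051, 0.005 and 0.019, so the numbers were not taken as pairs.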

Additional observations from a re-analysis of the deposited data

Results flagged for a closer look

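Of the 30 genes with the largest rises and falls against control, 10 had levels at 9 days that differed from those at 5 days by limma's test of that difference. Over all genes 6.12% differed. The 30 genes were chosen on the same 9 day arrays, which favours rises above and falls below the 5 day level. The 5 higher at 9 days were pdk2b by 2.22 on the log2 scale (adjusted p = 0.0011), angptl4 by 2.05 (adjusted p = 0.00285), nfil3-6 by 1.22 (adjusted p = 0.00973), clic5a by 0.70 (adjusted p = 0.007) and ddb2 by 0.68 (adjusted p = 0.01). The 5 lower were tomm40l at -1.29 (adjusted p = 0.00323), hsp90aa1.1 at -1.0 (adjusted p = 0.0267), sphkap at -0.91 (adjusted p = 0.0178), klf2b at -0.78 (adjusted p = 0.0055) and abcd2 at -0.55 (adjusted p = 0.0109). Of these, tomm40l, sphkap and klf2b were also lower than at the end of treatment. By contrast hsp90aa1.1 was 0.77 higher than at the end of treatment (adjusted p = 0.0438), when it averaged 9.12. The mean of abcd2 was then 7.09, beside 7.29 at 9 days (adjusted p = 0.271). The 9 day means of pdk2b and angptl4 were 10.1 and 8.88, beside 7.88 and 6.83 at 5 days and 8.31 and 6.58 in controls. Both had been high before, with means of 11.31 and 8.77 at the end of treatment and 9.04 and 8.22 at 2 days. Against the end of treatment pdk2b was lower at 9 days by 1.21 (adjusted p = 0.0209), and angptl4 did not pass the test (adjusted p = 0.897).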

How the results depend on the processing

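The count of 1452 genes between 9 days and control stayed within 1.5 times under no variance trend, robust variance, array weights, median centring, cyclic loess, without the genes of lowest level, cluster means, all clusters, only the 6 arrays compared and the replicate block, at 993 to 1733. With the replicate block 1337 genes were called against control, 3525 against the end of treatment and 1060 against 5 days, and 148 of 150 called genes chosen for description kept their call. Leaving out 1 array gave 713 to 1245 against control, 2734 to 3128 against the end of treatment and 615 to 1172 against 5 days. A 1.5-fold minimum left 568, 1634 and 485. The red cell covariate left 46 against control and 285 against 5 days, and only the 6 arrays compared left 636 against 5 days. The cause was not tested beyond the wider standard errors, 1.71 times for control and 1.47 times for 5 days. Under the covariate tubb1, a tubulin gene of thrombocytes, changed sign from 1.03 to -0.1, and of the 150 genes 139 lost their call and 10 kept it. Leaving out 9 day array 3 kept 122 of the 150, and cyclic loess kept 150. Fewer arrays lower the power of each left-out fit.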

Other observations

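Transcript clusters with no single gene symbol here were left out of the lists and named genes. In a fit of all clusters, 614 of these 54406 (1.13%) differed between 9 days and control, 270 higher and 344 lower, beside 690 of 20806 with 1 symbol (3.32%). Their median log2 level was 3.62, against 5.53 for named clusters.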
